A study of Sus scrofa with 8 samples.

Results

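Metallothioneins, the zinc sensor MTF1 and 4 zinc transporters were followed in the liver of pigs before and after steatosis was induced by diet. The 9 genes were MT3, MT1D, MT-2B, LOC102166944, MTF1, SLC30A1, SLC30A10, SLC39A4 and SLC39A14, out of 18103 genes listed with an expression value. They were picked by name, with their levels in these same libraries already known. Their change between the groups is therefore given as a description, with no test. Tests are given only for genes outside the 9. The lists of those genes were also chosen with earlier results of these data known, so their p values are not free of that choice. The tests used limma on log2(FPKM + 0.1) with Benjamini-Hochberg adjustment over the 13175 genes that passed a filter on low values. All 9 genes passed that filter. A gene outside the 9 passed the strict limits when its adjusted p was below 0.01 and its log2 fold change above 1 or below -1, and the looser limit when its adjusted p was below 0.05. FPKM, the unit of every level below, counts fragments per length of transcript and per size of the library. It is meant to be set side by side between genes. For transcripts as short as the metallothioneins it depends on an effective length that is not given, so their placing among longer genes is less certain.

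Hepatic RNA of male Landrace x Large White pigs was sequenced in 8 libraries, each a pool of equal amounts from 2 pigs. Pools 1 to 4 of the initial state came from animals 4 months old on the control diet, sampled by a surgical liver biopsy under anaesthesia. Pools 1 to 4 of steatosis came from animals 6 months old that had eaten a steatotic diet for 2 months, sampled after euthanasia. Both groups are stated to be the same animals. It is not stated that pools of the same number hold the same 2 pigs. The steatotic diet was rich in saturated fat and fructose, contained cholesterol and sodium cholate, was short of methionine and choline and held less protein than the control diet. All animals were fasted overnight before sampling. Diet, age and the way of sampling changed together and cannot be told apart. A pool hides the difference between its 2 pigs, and every SD given below is the spread between 4 pools.

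Metallothioneins are small cysteine-rich proteins that hold zinc and copper ions in the cytosol and are abundant in the liver. Their genes are known targets of MTF1, a transcription factor that senses free zinc and binds metal response elements, and they also respond to glucocorticoids and to cytokines of the acute phase. Transporters of the ZnT family (SLC30) carry zinc out of the cytosol, across the cell membrane or into organelles, whereas those of the ZIP family (SLC39) bring zinc into it. Some members of both families carry other metals: SLC30A10 is known as an exporter of manganese, and SLC39A14 takes up iron and manganese as well as zinc in hepatocytes.

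The libraries were liver by their markers: the summed FPKM of 8 hepatocyte genes lay between 58403 and 91045 in the initial state and between 53844 and 65375 in steatosis. Pool 1 of the initial state stood apart. It held 2575 FPKM of 6 skeletal muscle genes and 1471 FPKM of 5 stomach genes, against at most 19.8 and 23.7 FPKM in any other pool. The fits were repeated without this library, and those values are given beside some of the results only. Macrophage markers summed to between 698.4 and 976.9 FPKM in initial pools and to between 1154 and 1352 FPKM in steatosis pools. Endothelial markers summed to between 115.5 and 145.1 FPKM in initial pools and to between 158.6 and 165.3 FPKM in steatosis pools, and B cell markers to between 2.19 and 5.84 and to between 1.25 and 1.78 FPKM. These 3 sums did not overlap between the groups, whereas those of stellate cell, cholangiocyte, T cell and red blood cell markers did. Of all single genes tested, 32.1% did not overlap in either direction. The part of these cell types in the results was not tested. In bulk RNA, fewer cells of a type and less RNA per cell cannot be told apart.

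The table listed 7 metallothionein genes, all on chromosome 6 of Sscrofa11.1, within 62.4 kb (18611245 to 18673673). Their order was MT4, MT3, MT-2B, MT1D, LOC100739663, LOC102166944 and MT1A. Of the metallothioneins among the 9 genes, MT3 spanned 18634735 to 18636134, MT-2B 18645125 to 18646034, MT1D 18650985 to 18652317 and LOC102166944 18660665 to 18662000. The names need care. The files describe MT1D as metallothionein-1E, MT-2B as metallothionein-2A and LOC102166944 as metallothionein-1E-like. The study calls LOC102166944 MT1A, whereas the table also has a separate gene with the symbol MT1A (gene 397417), which is treated below as another gene. Transcripts of such similar genes can share reads, so the split of a level between them is less certain than their sum.

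The only designed sequences at hand for these genes are the RT-qPCR primers of the study, which are shown because the study measured these genes with them. Which of the similar transcripts they match was not tested, and the RT-qPCR values are not used here. The primers are printed 5′ to 3′ in lower case, with no bases marked, and each has 20 bases.
LOC102166944 sense: gtataaacctgagcacgcgg
LOC102166944 antisense: acttgtccgaggctcctttg
MT1D sense: taagtgtagctgctgtgcct
MT1D antisense: tagcaatcgagtcagggtca

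By FPKM, metallothionein transcripts were among the most abundant of the liver in the initial state. MT1D was the fourth most expressed gene by mean FPKM there, after the genes of albumin (ALB), apolipoprotein C-III (APOC3) and orosomucoid (ORM1) and before that of haptoglobin (HP). All 7 metallothionein genes together made up 5.42%, 4.58%, 4.28% and 3.32% of the summed FPKM of initial pools 1 to 4. In steatosis pools 1 to 4 they made up 1.34%, 0.602%, 0.535% and 0.96%. The size of these shares, like the rank of MT1D, depends on the effective length of short transcripts, which is not given. The groups did not overlap. The sum was 23154 ± 3997 FPKM in the initial state and 4526 ± 2011 FPKM in steatosis (SD, n = 4 pools), 5.12-fold lower. Within each pool number, steatosis retained 25.7%, 13.1%, 12.2% and 27.8% of the initial sum.

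MT1D (gene 100037920), a metallothionein of the classical hepatic kind, was the most abundant of the 9 genes in the initial state. Its level was 10113, 10963, 9047 and 7841 FPKM in initial pools 1 to 4. In steatosis pools 1 to 4 it was 2157, 1002, 401.6 and 1715 FPKM. Every steatosis pool lay below every initial pool, and steatosis pool 3 was the lowest. The mean was 9491 ± 1351 FPKM in the initial state and 1319 ± 774.8 FPKM in steatosis, 7.2-fold lower, with a fitted log2 difference of -3.09 (SE 0.44). The initial pools were alike, the highest being 1.4 times the lowest, whereas the steatosis pools spread over 5.37 times. Within pools 1 to 4, steatosis kept 21.3%, 9.14%, 4.44% and 21.9% of the initial level, and the fitted difference was -3.06 without initial pool 1 and -2.61 without steatosis pool 3.

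LOC102166944 (gene 102166944) followed the pattern of MT1D most closely among the metallothioneins. Initial pools 1 to 4 held 5161, 4363, 4689 and 3033 FPKM. Steatosis pools 1 to 4 held 1088, 395.2, 407.2 and 687.2 FPKM. The groups did not overlap, and pools 1 and 4 were the higher ones in steatosis, as for MT1D. The mean went from 4312 ± 913 to 644.4 ± 325 FPKM, 6.69-fold lower, a fitted log2 difference of -2.84 (SE 0.31), or -2.75 without initial pool 1. Per pool number, 21.1%, 9.06%, 8.68% and 22.7% of the initial level were left.

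MT-2B (gene 396827), the counterpart of metallothionein-2A, had the smallest difference of the metallothioneins. Its level was 6282, 4557, 5065 and 3754 FPKM in initial pools 1 to 4. The steatosis pools held 2395, 1141, 1264 and 1530 FPKM. Again no steatosis pool reached an initial pool. The mean went from 4915 ± 1059 to 1583 ± 565.5 FPKM, 3.1-fold lower, a fitted log2 difference of -1.67 (SE 0.24), or -1.54 without initial pool 1. Between 25.0% and 40.8% of the initial level was left in each pool.

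MT3 (gene 397123), known from the brain as growth inhibitory factor, was a rare transcript beside the others. Initial pools 1 to 4 held 9.76, 6.86, 7.56 and 10.02 FPKM. Steatosis pools held 0.52, 0.34, 0.34 and 0.51 FPKM. The groups did not overlap and the 4 values of each group lay close together. The mean went from 8.55 ± 1.58 to 0.428 ± 0.101 FPKM, with a fitted log2 difference of -4.04 (SE 0.19) and -3.97 without initial pool 1. The retained share was the most even of the metallothioneins, from 4.5% to 5.33% in the 4 pools. MT3 amounted to only 0.0626% to 0.128% of the MT1D level in initial pools, and whether reads of MT1D were assigned to it was not tested. In steatosis it was near the limit of detection: its FPKM was 4.0, 2.0, 0.618 and 0.864 times the lowest non-zero value among 8 other genes of nearly the same transcript length. Neuronal markers (SNAP25, SYT1, RBFOX3 and GFAP) summed to at most 0.41 FPKM in any pool.

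**Figure D1:**
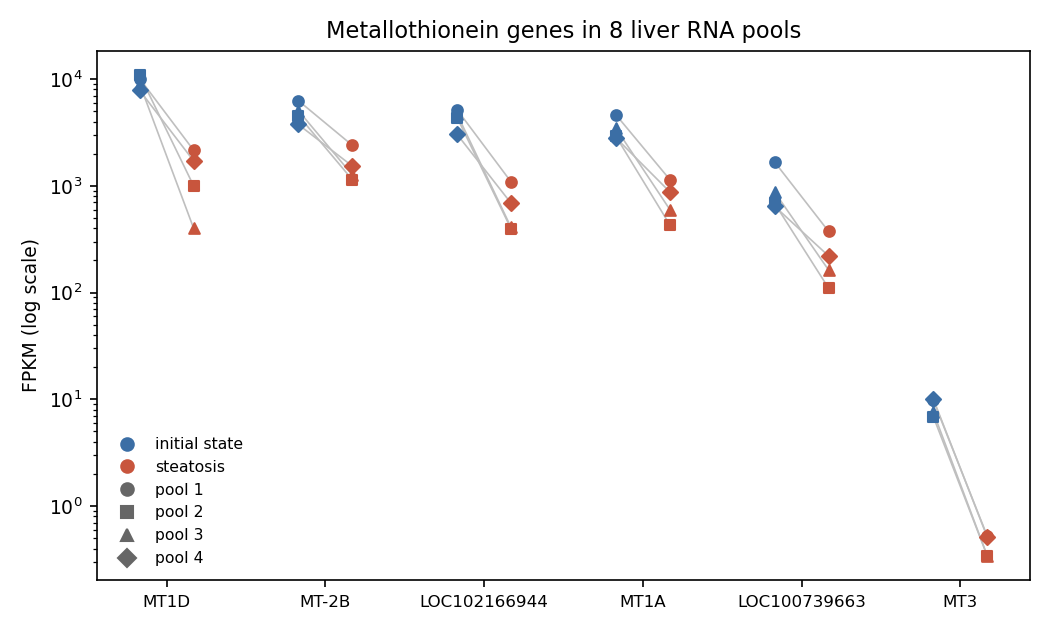
FPKM of 6 metallothionein genes on a log axis in each of the 8 pools, with blue for the initial state, red for steatosis, a marker shape for each pool number and a grey line joining the pools of the same number. For each gene all 4 steatosis pools lie below all 4 initial pools. MT3 lies far below the others in both groups, and the steatosis pools of MT1D reach from 401.6 to 2157 FPKM.

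The 4 metallothioneins among the 9 genes were thus below every initial pool in all steatosis pools, as were 2.53% of all genes tested, and the other 5 overlapped. Of all genes 29.6% lay above every initial pool in all steatosis pools, so that 32.1% did not overlap in either direction. Since the levels of the 9 genes were known when they were picked, nothing is read from these shares. By limma 6.35% of the genes tested passed the strict limits, 0.334% lower and 6.01% higher in steatosis. The median log2 difference of all genes tested was 0.25. After scaling by the median ratio between libraries it was -0.01, and 82.9% instead of 94.7% of the called genes were higher. The fitted log2 differences on that scale were -4.28 for MT3, -3.37 for MT1D, -3.12 for LOC102166944 and -1.95 for MT-2B, so the direction was the same on both scales.

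The makeup of the metallothionein pool also differed between the groups. MT1D took 36.3%, 46.7%, 39.1% and 43.3% of the metallothionein FPKM in initial pools 1 to 4. In steatosis it took 30.1%, 32.5%, 14.2% and 34.1%. Its share was lower in every steatosis pool than in any initial pool, with means of 41.3% ± 4.58 and 27.7% ± 9.19. MT-2B showed the opposite, with 22.5%, 19.4%, 21.9% and 20.7% in initial pools and 33.5%, 37.1%, 44.6% and 30.4% in steatosis pools. Hence MT-2B stood at 41.6% to 62.1% of MT1D in initial pools and at 89.3% to 314.8% in steatosis pools. The share of LOC102166944 went from 18.5% ± 1.43 to 14.0% ± 1.01. These shares follow from the same values by which the genes were known, and they rest on how reads were split between similar transcripts.

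**Figure D2:**
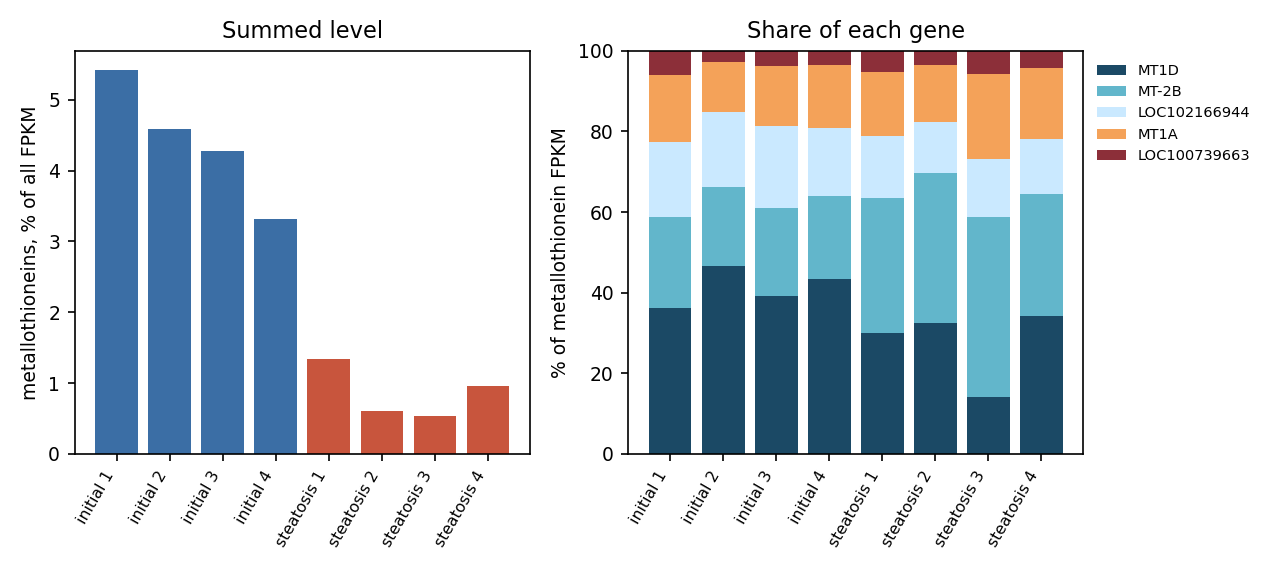
Left, summed metallothionein FPKM as a percentage of all FPKM, 1 bar for each pool, with blue bars for the initial state and red bars for steatosis. Right, the percentage of the metallothionein FPKM that came from each of 5 genes in the same pools. The sum lies at 3.32% to 5.42% in initial pools and 0.535% to 1.34% in steatosis pools, and the MT-2B part is wider in steatosis.

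The remaining metallothioneins of the table were tested, since they are not among the 9 genes. MT1A (gene 397417) held 4637, 2915, 3468 and 2819 FPKM in initial pools 1 to 4 and 1144, 430.7, 599.1 and 876.8 FPKM in steatosis pools. It fell by limma, with a log2 fold change of -2.25 (SE 0.29) and an adjusted p of 0.000555, or -2.10 and 0.00121 without initial pool 1. LOC100739663, described as metallothionein-1C, held 1671, 684.6, 874.2 and 643 FPKM in initial pools and 374.1, 110, 162.6 and 220.3 FPKM in steatosis pools. It fell by 2.19 on the log2 scale (SE 0.39; limma, adjusted p 0.00301), or by 1.89 (adjusted p 0.00457) without initial pool 1. Without steatosis pool 3 the log2 fold change of LOC100739663 was -2.10 with an adjusted p of 0.0103 by limma, just past the limit of 0.01. As both genes share similar sequence with MT1D and LOC102166944, their fall is not independent of the levels given above. MT4, known from squamous epithelia, was listed at 0.14 FPKM in initial pool 1 and at 0 in the other 7 pools, and was not tested.

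MTF1 (gene 100511998; chromosome 6, 93837195 to 93884427), the zinc-sensing activator of metallothionein genes, was expressed at a low level in both groups. Initial pools 1 to 4 held 1.96, 2.83, 2.48 and 1.98 FPKM. Steatosis pools held 2.88, 2.73, 2.64 and 2.97 FPKM. The ranges overlapped, with initial pools 1, 3 and 4 below all steatosis pools. The mean was 2.31 ± 0.421 and 2.81 ± 0.148 FPKM, a fitted log2 difference of 0.28 (SE 0.15), close to the median of all genes. Scaled by the median ratio it was 0.02, and without initial pool 1 it was 0.21.

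SLC30A1 (gene 503660; chromosome 9, 131633586 to 131636934), the zinc exporter of the cell membrane and itself a known target of MTF1, had a lower mean in steatosis. Its level was 4.83, 5.15, 3.84 and 3.38 FPKM in initial pools and 2.43, 4.48, 3.1 and 3.35 FPKM in steatosis pools. The groups overlapped, although the steatosis value was the lower within each pool number, at 50.3%, 87.0%, 80.7% and 99.1% of the initial one. The mean was 4.3 FPKM in the initial state and 3.34 FPKM in steatosis (coefficients of variation 19.3% and 25.6%), with a fitted log2 difference of -0.37 (SE 0.2), and -0.31 without initial pool 1. Scaled by the median ratio the difference was -0.63, and by the upper quartile -0.60.

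SLC30A10 (gene 100623097; chromosome 10, 9527523 to 9545493), the manganese exporter, held 11.54, 12.25, 13.97 and 10.81 FPKM in initial pools and 13.19, 14.01, 12.33 and 15.56 FPKM in steatosis pools. The groups overlapped, and steatosis was the higher in pools 1, 2 and 4 and the lower in pool 3. The means of 12.1 ± 1.35 and 13.8 ± 1.37 FPKM gave a fitted log2 difference of 0.18 (SE 0.11), whose sign turned on other scales (-0.09 with the median ratio and -0.06 with the upper quartile).

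SLC39A14 (gene 100152468; chromosome 14, 6639485 to 6687929), the hepatic importer of zinc, iron and manganese, was the most expressed transporter of the 9 genes. It held 37.44, 55.25, 47.37 and 39.19 FPKM in initial pools and 35.76, 37.01, 45.28 and 34.41 FPKM in steatosis pools. Initial pool 2 was the highest and the groups overlapped, while steatosis was the lower in each pool number (67.0% to 95.6%). The means were 44.8 ± 8.19 and 38.1 ± 4.89 FPKM, a fitted log2 difference of -0.22 (SE 0.14), or -0.50 on the median-ratio scale.

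SLC39A4 (gene 100156896; chromosome 4, 372681 to 378519), the zinc importer of the gut whose loss causes acrodermatitis enteropathica, was barely expressed. Initial pools held 0.59, 0.6, 1.16 and 0.44 FPKM and steatosis pools 0.65, 0.84, 1.16 and 0.55 FPKM. Pool 3 was the highest in both groups, and the groups overlapped almost wholly. The fitted log2 difference was 0.20 (SE 0.3), and 0.03 without steatosis pool 3, and its sign turned with the median ratio (-0.03) and the upper quartile (-0.01).

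**Figure D3:**
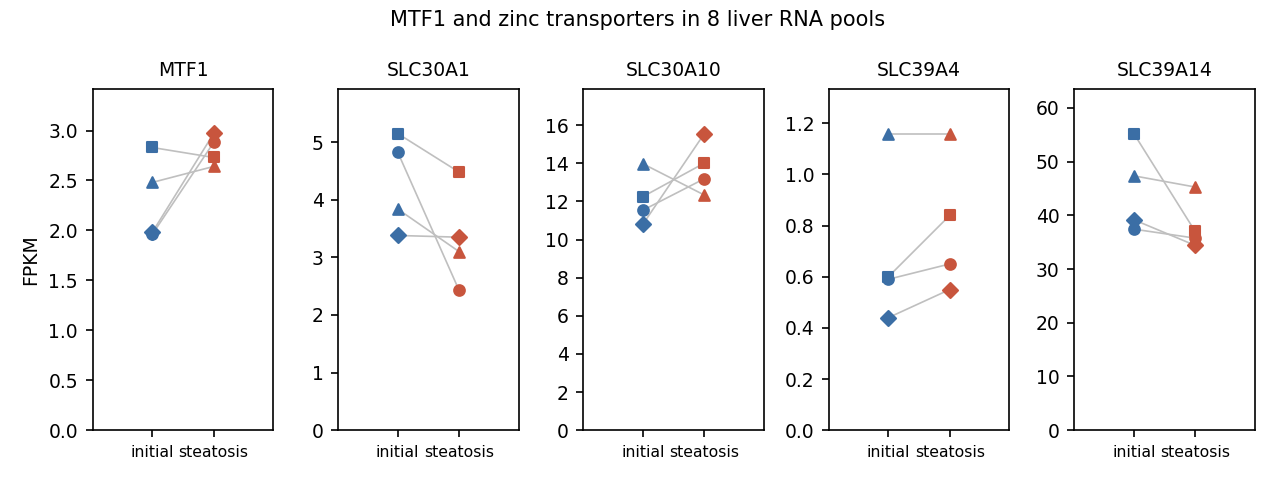
FPKM of MTF1 and the 4 zinc transporters in each pool, on linear axes that start at 0 and differ between genes, with blue for the initial state, red for steatosis, a marker shape for each pool number and grey lines joining the pools of the same number. The groups overlap for all 5 genes. SLC39A14 is the most expressed, between 34.41 and 55.25 FPKM, and SLC39A4 the least.

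By FPKM, the order of the 9 genes in the initial state was MT1D, MT-2B, LOC102166944, SLC39A14, SLC30A10, MT3, SLC30A1, MTF1 and SLC39A4. Only MT-2B and LOC102166944 overlapped among neighbours in that order. In steatosis the order was MT-2B, MT1D, LOC102166944, SLC39A14, SLC30A10, SLC30A1, MTF1, SLC39A4 and MT3. There MT-2B and MT1D overlapped, as did MT1D and LOC102166944 and also SLC30A1 and MTF1. MT3 thus went from the sixth place to the last, its highest steatosis pool (0.52 FPKM) lying just under the lowest of SLC39A4 (0.55 FPKM). Within the whole table MT1D ranked from 3 to 5 in initial pools and from 34 to 206 in steatosis pools, and MT-2B from 7 to 20 and from 29 to 54. LOC102166944 ranked from 10 to 28 in initial pools and from 69 to 206 in steatosis pools.

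Differences of the other zinc transporters were small beside those of the metallothioneins. Of 5 other ZnT genes tested, 0 passed the strict limits or the looser limit by limma, and 1 was lower at an unadjusted p under 0.05. Their log2 differences ran from -0.30 to 0.13, with a median of -0.06 against 0.25 for all genes. SLC30A5, which loads zinc into the secretory pathway and was the most expressed of them, had a log2 difference of -0.30 and an adjusted p of 0.0831 by limma. On the median-ratio scale 3 of the 5 were lower by the looser limit, where 9.81% of all genes were.

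Of 10 other ZIP genes tested, 0 passed the strict limits by limma, 4 were higher by the looser limit and 4 were higher at an unadjusted p under 0.05. By the looser limit 26.7% of all genes were higher, 2.28% were lower and 29.0% differed in either direction. At an unadjusted p under 0.05 these shares were 37.8%, 4.13% and 41.9%. SLC39A1, a ZIP of the cell membrane, held 11.23, 15.16, 14.47 and 12.78 FPKM in initial pools and 23.04, 21.04, 21.34 and 23.11 FPKM in steatosis pools, without overlap. By limma it rose by 0.73 on the log2 scale (adjusted p 0.00138), and on the median-ratio scale by 0.45 (adjusted p 0.0113). SLC39A5 rose by 0.48 on the log2 scale (adjusted p 0.0105 by limma), but its adjusted p was 0.208 on the median-ratio scale. SLC39A6 (0.76) and SLC39A10 (0.79), named after their values were seen, had adjusted p of 0.0115 and 0.0117 by limma, and 0.0599 and 0.0673 on the median-ratio scale. SLC39A8, a close relative of SLC39A14, had a log2 difference of -0.26 with an adjusted p of 0.195 by limma, but -0.54 and 0.0213 on the median-ratio scale.

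**Figure D4:**
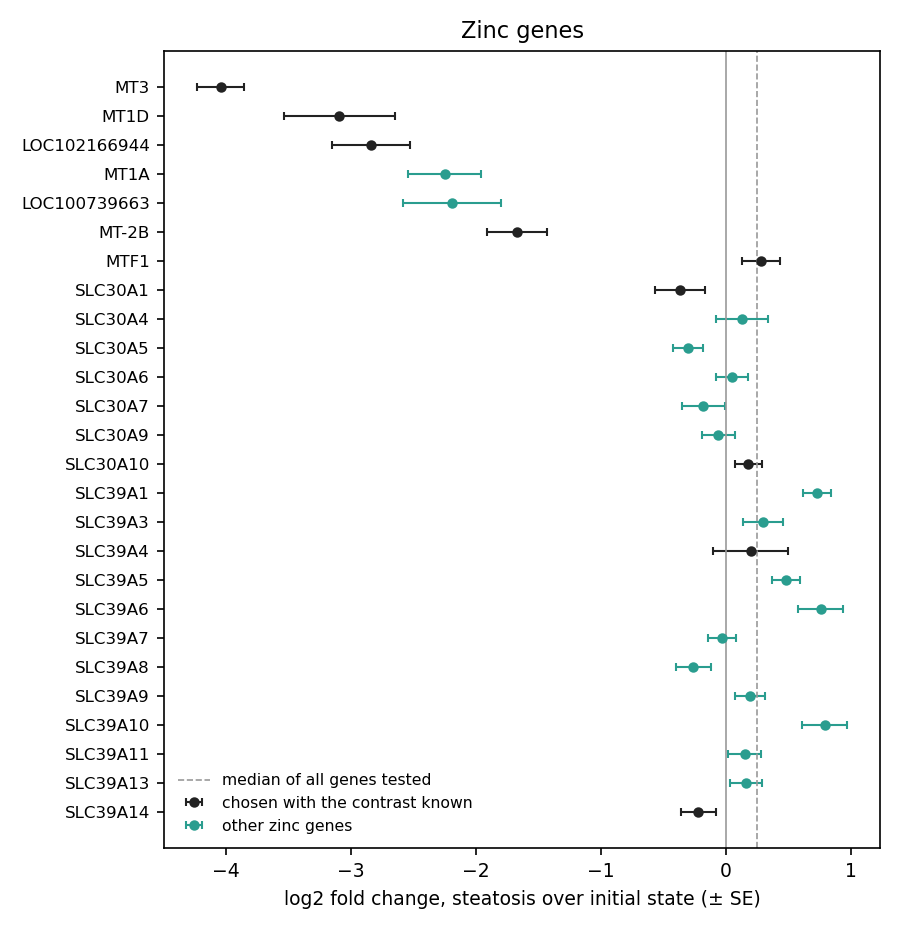
Fitted log2 fold change (steatosis over initial state, with its SE) of metallothioneins, MTF1 and ZnT and ZIP transporters that passed the filter on low values. Black marks the 9 genes picked with this contrast known and green the other zinc genes, and the dashed line is the median of all genes tested, 0.25. The 6 metallothioneins lie between -4.04 and -1.67 and the rest between -0.37 and 0.79.

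Metallothioneins also bind copper, so copper genes were examined with the same test. Of 14 tested, 1 was higher and 0 were lower by the strict limits, where 6.01% and 0.334% of all genes were. By the looser limit 3 of the 14 (21.4%) were higher, where 26.7% of all genes were. The median of the 14 was 0.24, which equalled that of all genes within 0.01. The gene called was SLC31A2, a transporter of copper in endosomes and lysosomes, with 3.17, 3.5, 3.96 and 5.18 FPKM in initial pools and 6.34, 9.48, 8.2 and 9.16 FPKM in steatosis pools. This is a rise of 1.06 on the log2 scale (SE 0.18; limma, adjusted p 0.00236), which dropped under the limit of 1 without initial pool 1 (0.96), without steatosis pool 2 (0.99) and on the median-ratio scale (0.79). The metal reductase STEAP3 rose by 0.97 on the log2 scale (adjusted p 0.000781 by limma), a gene named after its values were seen. SLC31A1, the main importer of copper, had a log2 difference of 0.45 (limma, adjusted p 0.0675, or 0.012 with pools blocked by number). It was higher in steatosis in each of the 4 pool numbers. On the median-ratio scale its difference was 0.18 with an adjusted p of 0.546 by limma. By the looser limit 2 of the 14 were higher and 1 was lower on that scale, where 11.6% and 9.81% of all genes were. The lower one was CP, which encodes ceruloplasmin, at -0.52 (limma, adjusted p 0.0496).

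Glucocorticoids are known to raise metallothionein transcription, and 14 genes of glucocorticoid action were tested. They were glucocorticoid-responsive genes together with NR3C1, which encodes the receptor, and HSD11B1, an activating enzyme. By limma 0 passed the strict limits. At an unadjusted p under 0.05 there were 1 higher and 5 lower of 14, where 37.8% and 4.13% of all genes were. The 1 higher was NR3C1, and HSD11B1 was among the 5 lower. The median log2 difference of the 14 was -0.46, but 0.07 without initial pool 1, the pool with muscle and stomach transcripts. That pool held the highest value of TAT, tyrosine aminotransferase, at 616.2 FPKM, whereas the other initial pools held 351.9, 248.2 and 111.1 FPKM and the steatosis pools 124.4, 107.8, 155.2 and 97.77 FPKM. TAT overlapped between the groups, with a log2 difference of -1.22 and an adjusted p of 0.0562 by limma, or 0.0263 when pools were blocked by number. HSD11B1, which regenerates active glucocorticoid in the liver, fell by 0.47 on the log2 scale (adjusted p 0.0141 by limma) with no overlap. By the looser limit it was the single gene of the list that was lower, where 2.28% of all genes were. It is not one of the responsive genes. Without initial pool 1 the count of lower genes stayed at 1 of 14, where 2.14% of all genes were lower. It was 5 of 14 with the pools blocked, where 2.6% of all genes were lower, and without initial pool 4, where 3.02% were. It was also 5 of 14 with the upper quartile, where 8.17% of all genes were lower, and with the median ratio, where 9.81% were. All settings with 5 of 14 kept initial pool 1. With the median ratio the median of the list was -0.73. The metallothionein sum was also highest in initial pool 1 and lowest in initial pool 4, the order TAT had in these pools. The steatosis pools did not share it: TAT was highest in pool 3, where the metallothionein sum was lowest (2835 FPKM). TAT was lowest in steatosis pool 4, where the sum was 5030 FPKM, above pools 2 and 3. A link between them was not tested with 4 pools a group.

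Acute phase genes, which share cytokine control with metallothioneins, had smaller differences than these. Their log2 differences ran from -0.97 to 0.96. Of 20 tested by limma, 0 passed the strict limits and 5 were lower by the looser limit, where 2.28% of all genes were lower. With pools blocked by number 6 were lower and 1 was higher, where 2.6% and 25.7% of all genes were. The median of the 20 was -0.24 without the block. On the median-ratio scale 8 of the 20 were lower by that limit, against 9.81% of all genes, and the median was -0.51. At an unadjusted p under 0.05 and without that scaling there were 6 lower and 0 higher, where 4.13% and 37.8% of all genes were. The 5 genes were HP, HPX and the fibrinogen genes FGA, FGB and FGG, with log2 fold changes between -0.52 and -0.44. HP, which binds free haemoglobin, held 7996, 6186, 6511 and 8222 FPKM in initial pools and 4792, 5075, 4345 and 5873 FPKM in steatosis pools, with an adjusted p of 0.0245 by limma. The interleukin 6 signalling genes SOCS3, STAT3, IL6R and IL6ST had log2 differences of -0.50, -0.17, 0.04 and 0.24, with adjusted p between 0.14 and 0.821 by limma.

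The genes around the metallothioneins on chromosome 6 differed far less. Of the 10 nearest genes on each side, 15 were in the table and 12 were tested. By limma 0 passed the strict limits and 3 were higher by the looser limit, where 26.7% of all genes were. At an unadjusted p under 0.05 there were 5 higher and 2 lower, where 37.8% and 4.13% of all genes were, and their median was 0.06. The nearest ones tested on either side were BBS2, of the primary cilium, with a log2 difference of -0.03 (adjusted p 0.924 by limma), and NUP93, of the nuclear pore, with 0.47 (adjusted p 0.0248 by limma, or 0.0538 when pools were blocked by number). CDH1, which encodes E-cadherin, rose by 0.87 on the log2 scale (adjusted p 0.00089 by limma). On the median-ratio scale 1 of the 12 was higher and 3 were lower by the looser limit, where 11.6% and 9.81% of all genes were.

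**Figure D5:**
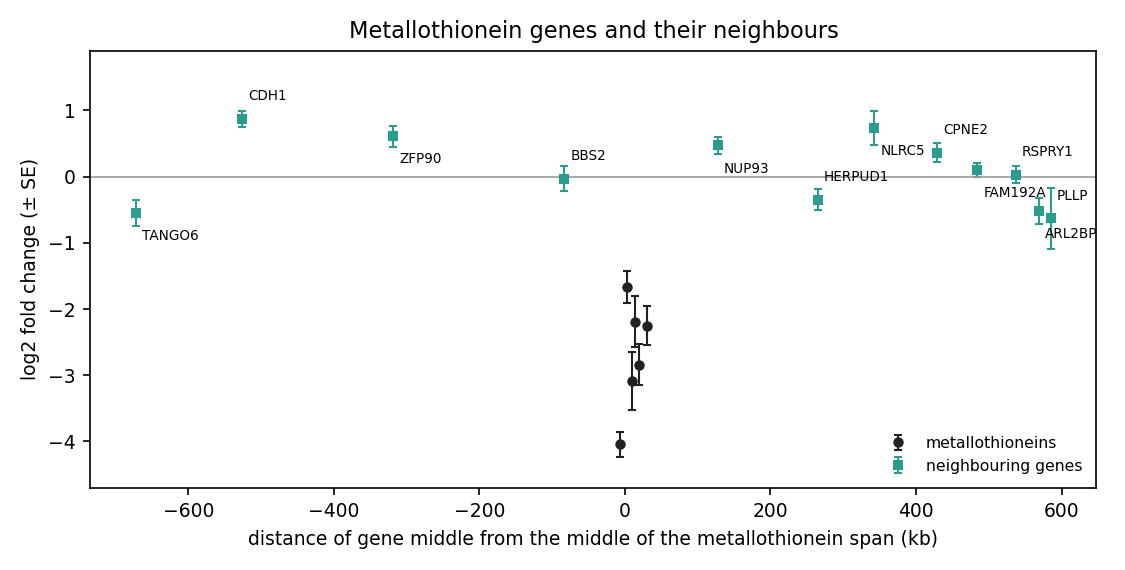
Fitted log2 fold change (with its SE) of the 6 tested metallothioneins (black circles) and 12 neighbouring genes (green squares) against the distance of each gene's middle from the middle of the metallothionein span, in kb. The metallothioneins all lie at or below -1.67, whereas the neighbours lie between -0.63 and 0.87.

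Profiles over the 8 pools were set beside that of MT1D by the root mean square difference of centred log2(FPKM + 0.1). Among metallothioneins LOC102166944 was the nearest (0.43), followed by MT1A (0.68), MT3 (0.75), LOC100739663 (0.77) and MT-2B (0.88). Of the 5 nearest genes outside the metallothioneins, 4 are given here: CYP51 (0.66), ACAT2 (0.71), FDPS (0.72) and EBP (0.72). CYP51, FDPS and EBP are enzymes of sterol synthesis, and ACAT2 is an acetyl-CoA acetyltransferase. CYP51 held 80.39, 79.96, 72.71 and 92.2 FPKM in initial pools and 46.19, 13.79, 10.78 and 15.23 FPKM in steatosis pools. FDPS held 75.67, 88.68, 64.31 and 67.56 FPKM in initial pools and 46.18, 12.52, 12.2 and 16.63 FPKM in steatosis pools. In both of these genes, as in MT1D, steatosis pool 1 was the highest and pool 3 the lowest of the steatosis pools. In contrast to MT1D, steatosis pool 4 was close to pools 2 and 3 in both. The likeness is a description over 8 libraries that mostly reflects the difference between the groups.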

How the data were processed

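The 9 genes and all gene lists were chosen with earlier results of these data known. The FPKM values were deposited by the authors, who filtered 100-base paired reads, mapped them with HISAT2 2.0.4 to Sus scrofa 11.1, added new transcripts to the reference and estimated levels with Bowtie2 2.2.5 and RSEM 1.2.12. No scaling between libraries or strand setting is given in the sources used here. Gene lengths, another kind of value, were deposited in comparison tables whose fold changes, p values and directions for single pairs of libraries were not used.

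The rows were taken by symbol, and coordinates by gene ID from RefSeq (Sscrofa11.1). The fit used limma 3.58.1 in R 4.3.3 on genes that reached 0.3 FPKM in 4 or more of the 8 libraries. Values were log2(FPKM + 0.1), the variance was allowed to follow the mean, and the model held only the group. Fold changes are on that scale, which understates the change of low genes. Genes past the strict limits (adjusted p below 0.01, log2 fold change above 1 or below -1) are called. The fit was tested on simulated data. Tables came from pandas 2.3.3 and numpy 2.4.6 in Python 3.11.15, and plots from matplotlib 3.10.9. The RT-qPCR primers were copied from the study's supplement.

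Pools of the same number were taken as pairs, and the deposited comparisons also set libraries of the same number against each other. Their departures from the group means correlated at 0.163, 0.35, 0.317 and 0.247 for pools 1 to 4. Pools of unlike number were not correlated, so these values cannot show that pools of the same number hold the same pigs. The depth per library is not known from FPKM, so precision is the SD between pools, and FPKM of transcripts as short as the metallothioneins depends on an effective length that is not given in the sources used here.

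Named genes are the 9 genes, every called gene of a list and at most 6 more per list in order of mean FPKM, the 5 profiles nearest to MT1D (1 of which is not reported here) and the 5 highest genes of the initial state. Genes outside this rule (HPX, NUP93, NR3C1, the interleukin 6 genes, SLC39A6, SLC39A10, STEAP3 and MT4) were named after their values were seen. Alternatives were other scalings, filters and pseudocounts, the pool number as a block, each library left out in turn and an adjusted p under 0.05.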

Additional observations from a re-analysis of the deposited data

Results flagged for a closer look

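In the 4 initial pools, MT4 was listed at 0.14 FPKM in pool 1 and at 0 in the others, which set pool 1 apart by Dixon's criterion for 4 values. With the other 3 values at 0 any value above 0 passes that criterion, so it says nothing about the size of the difference. The criterion was applied to 23 groups of 4 pools. Chance sets apart about 1 in 20 groups, a rate that does not hold for tied zeros. Pool 1 is also the initial pool with skeletal muscle and stomach transcripts.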

How the results depend on the processing

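The log2 differences of MT3, MT1D, MT-2B and LOC102166944 kept their direction under every alternative tried. Leaving out each library in turn gave -4.14 to -3.96 for MT3, -3.41 to -2.61 for MT1D, -1.89 to -1.53 for MT-2B and -3.14 to -2.65 for LOC102166944, and 0.21 to 0.38 for MTF1, -0.52 to -0.23 for SLC30A1, 0.12 to 0.25 for SLC30A10, 0.03 to 0.45 for SLC39A4 and -0.31 to -0.12 for SLC39A14. MT3 was at -2.73 with a pseudocount of 1, which by construction shrinks low genes. On the upper-quartile and median-ratio scales, which shift all genes down, MTF1 was at 0.05 and 0.02, SLC39A14 at -0.46 and -0.50, and SLC30A1 at -0.60 and -0.63, while SLC30A10 turned to -0.06 and -0.09 and SLC39A4 to -0.01 and -0.03.

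Over all genes, 792 were higher and 44 lower. These became 434 and 76 with the upper quartile, 408 and 84 with the median ratio, 3519 and 300 at an adjusted p under 0.05, and 395 higher with a pseudocount of 1. Leaving out each library gave 573 to 788 higher and 26 to 51 lower, with 29 lower without initial pool 2, 28 without steatosis pool 2 and 26 without steatosis pool 4.

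At an adjusted p under 0.05, 4 other zinc genes were higher instead of 0, 3 copper genes instead of 1 and 3 neighbours instead of 0. At that limit 1 glucocorticoid gene and 5 acute phase genes were lower instead of 0. Of all genes 26.7% were higher and 2.28% lower at the same limit. The 2 other zinc genes that were lower, both metallothioneins, became 1 without steatosis pool 3 (1 to 2 over the libraries). The count of 1 copper gene became 0 with the upper quartile, the median ratio and a pseudocount of 1. It ran from 0 to 2 over the libraries, at 0 without initial pool 1 or steatosis pool 2 and at 2 without initial pool 2, initial pool 4, steatosis pool 1 or steatosis pool 3. The count of lower glucocorticoid genes ran from 0 to 1, at 1 without initial pool 4. The cause of these moves was not tested.

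With a replicate block for the pairing of pools, 785 genes were higher and 57 lower, and no call of the zinc, copper, glucocorticoid, acute phase or neighbouring genes by the strict limits was gained or lost. The adjusted p by limma was then 0.000362 for MT1A and 0.000351 for LOC100739663. What limits these values is 4 pools a group, an unknown depth and reads that similar metallothionein transcripts can share, which was not measured.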
